A study of Bos taurus with 8 samples.

Results

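The genes described here are the HOX genes of the 4 bovine clusters and the genes of their MEIS and PBX cofactors. They were chosen by gene symbol alone, as every listed gene named HOXA, HOXB, HOXC, HOXD, MEIS or PBX with a number. The rule found 34 of the 18871 genes listed, namely 28 HOX genes (9 HOXA, 8 HOXB, 7 HOXC and 4 HOXD), 3 MEIS genes and 3 PBX genes. All 34 had at least 20 counts in total and were tested, among 18339 genes. RefSeq names 46 such genes in the bovine assembly ARS-UCD2.0. The other 12 were not analysed here, among them *HOXC11*, *HOXC12* and *HOXD10* to *HOXD13*.

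RNA was sequenced from 8 bovine preadipocyte clones, each grown from a single stromal vascular cell of an adult male Angus cross steer. The 4 IMF preadipocyte clones (IMF1 to IMF4) came from intramuscular fat, the fat between muscle fibres, and the 4 SF preadipocyte clones (SF1 to SF4) from subcutaneous fat. The labels give no genotype or treatment that sets the groups apart. The clones had been picked for growth, adipogenic capacity and fibroblast-like shape, so they need not represent all preadipocytes of their depot. Their single-cell origin rests on the limiting dilution described in the paper and was not checked here. The labels do not say which clones share an animal. The paper's methods place RNA extraction before adipogenic induction and the series text after it. The intramuscular fat was taken from the *longissimus dorsi*, the long muscle of the back, and the body site of the subcutaneous fat is not given in the sources used here, so fat depot and position along the body cannot be told apart.

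HOX genes encode homeodomain transcription factors, and their order along each cluster matches the order in which they are switched on along the body axis. Low paralog numbers mark the hindbrain and neck, middle numbers the thorax, and high numbers the lumbar region, the tail and the ends of the limbs. Fibroblasts and fat precursor cells are known to keep a HOX pattern of their site of origin in culture. MEIS and PBX proteins are homeodomain cofactors of the TALE class that bind DNA together with HOX proteins and sharpen their choice of sites.

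Total counts were between 19658612 and 29315019 in the IMF clones and between 19983562 and 24872553 in the SF clones. Levels are given as CPM, counts divided by the TMM-scaled library size as edgeR computes it. At this depth, 3 counts equalled between 0.0981 and 0.165 CPM, which covers counting error only. The clones also differed in marker genes of other cell types. Of 12 satellite cell and myoblast markers 11 were tested and all 11 were higher in IMF, with summed levels of 1026 to 1138 CPM in the IMF clones and 2.7 to 33.9 CPM in the SF clones, where *MYOD1*, *MYOG*, *CDH15* and *CHRNA1* had at most 3 counts in every clone. Of 12 endothelial markers, 10 were higher in IMF (200.2 to 243 CPM summed, against 43.4 to 79.8 CPM in SF), and *KDR*, *TIE1*, *SELE*, *EMCN* and *ESAM* had at most 3 counts in every SF clone. Of 11 adipose stromal markers tested, 1 (*CD34*) was higher and 3 were lower in IMF, and all but *CD34* were above 3 counts in every clone. Their summed levels were 33251 to 34876 CPM in IMF and 55315 to 61872 CPM in SF. Most of this gap lay in *COL1A1* (means of 12372 and 30090 CPM) and *COL1A2* (10428 and 18167 CPM). Of the 11 markers, 6 had a negative log2 fold change, so the sums do not speak for each marker. Leukocyte markers summed to 17.4 to 40.2 CPM in IMF and 47.6 to 82.6 CPM in SF, with 1 higher and 1 lower of 6 tested, and Schwann and neural crest markers to 12.7 to 18 CPM and 14.4 to 30.3 CPM, with 1 higher and 1 lower of 5. The part of these marker differences in the HOX, MEIS and PBX differences was not tested. In such bulk RNA, fewer cells expressing a gene and less RNA per cell cannot be told apart.

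The comparison of IMF with SF clones asked how the positional genes of the 2 depots' preadipocytes differed. Of the 28 HOX genes, 10 passed the threshold used throughout, a log2 fold change of 1 or more in size with an adjusted p-value under 0.05. *HOXA9* and *HOXA10* were higher in the IMF preadipocyte clones. *HOXA3*, *HOXA13*, *HOXB2*, *HOXB5*, *HOXC4*, *HOXC5*, *HOXC8* and *HOXC13* were lower. Over all genes tested, 8.82% passed, 4.78% as higher and 4.04% as lower in IMF. An adjusted p-value under 0.05 was reached by 15 HOX genes, 2 higher and 13 lower, against 25.8% of all genes. The 4 IMF and the 4 SF clones did not overlap in 17 of the 28 HOX genes, 3 of them higher in IMF (*HOXA9*, *HOXA10*, *HOXC10*) and 14 lower. Over all genes tested, 32.1% did not overlap, 18% as higher and 14.1% as lower in IMF. The median log2 fold change of IMF over SF was -0.64 for the HOX genes and -0.03 for all genes tested. Scaling by total counts alone shifted the all-gene median to 0.12, and 4 HOX genes were then higher and 6 lower.

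**Figure D1:**
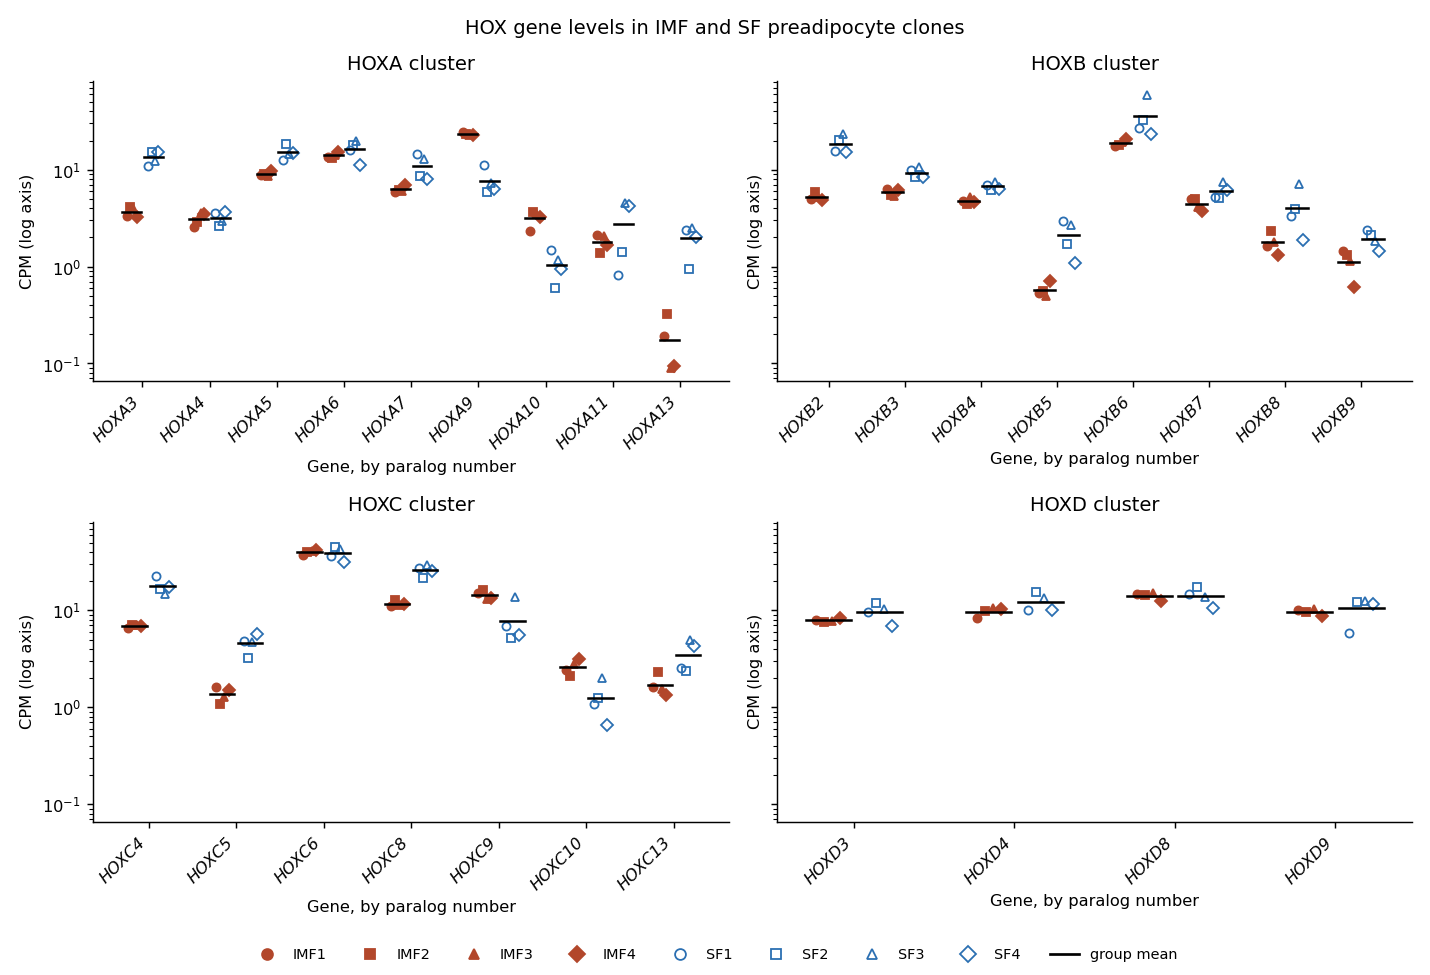
Level of each HOX gene in CPM (log axis) by cluster and paralog number, with a filled symbol for each IMF clone, an open symbol for each SF clone and a bar at the group mean. *HOXA9* and *HOXA10* sit higher in IMF, *HOXA3*, *HOXA13*, *HOXB2*, *HOXB5*, *HOXC4*, *HOXC5* and *HOXC8* sit lower, and the 4 HOXD genes overlap.

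The HOXA genes lie at 68842241 to 68947578 on chromosome 4 of ARS-UCD2.0, a span of 105.3 kb. Along this cluster the sign of the difference changed between *HOXA7* and *HOXA9* and again between *HOXA10* and *HOXA11*: the 2 genes past the threshold as higher, *HOXA9* and *HOXA10*, are neighbours, and genes on both sides had negative log2 fold changes. *HOXA9*, a thoracic to lumbar patterning gene that is also active in blood progenitors, measured 24.5, 23.5, 23.0 and 23.1 CPM in IMF1 to IMF4 and 11.2, 5.96, 7.22 and 6.34 CPM in SF1 to SF4. Every IMF clone was above every SF clone, and SF1 was the nearest of the SF clones to IMF. The means were 23.5 ± 0.70 and 7.69 ± 2.43 CPM (SD, n = 4 each), and the log2 fold change was 1.61 (SE 0.19, edgeR quasi-likelihood test, adjusted p = 0.000631), or 3.06-fold higher in IMF.

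*HOXA10*, which helps set the lumbar level of the spine and is needed in the uterus, measured 2.35, 3.66, 3.54 and 3.28 CPM in the IMF clones. In the SF clones it measured 1.49, 0.601, 1.18 and 0.937 CPM. The groups did not overlap, and IMF1 was the lowest IMF clone. Its log2 fold change was 1.61 (SE 0.30, edgeR adjusted p = 0.00631), or 3.04-fold higher in IMF with a 95% confidence interval of 1.88 to 4.93.

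At the 5′ end of the same cluster the direction was the opposite. *HOXA13*, a gene of the distal limb and the genital and urinary tract, had 4, 10, 2 and 2 counts in IMF1 to IMF4 and 47, 19, 62 and 37 counts in SF1 to SF4. In CPM the means were 0.176 ± 0.111 in IMF and 1.98 ± 0.716 in SF (SD, n = 4 each). IMF3 and IMF4 were under the floor of 3 counts, whereas all 4 SF clones were above it. The log2 fold change was -3.41 (SE 0.52, edgeR adjusted p = 0.00227), a 10.6-fold lower level in IMF with an interval of 4.63 to 24.3, which rests on 18 counts over the 4 IMF clones. *HOXA11*, a gene of the middle limb segment that lies between *HOXA10* and *HOXA13*, ranged from 1.37 to 2.11 CPM in IMF and from 0.821 to 4.5 CPM in SF, and its groups overlapped (log2 fold change -0.60, edgeR adjusted p = 0.442).

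*HOXA3*, which patterns the pharyngeal arches and the neck, measured 3.31, 4.12, 3.99 and 3.28 CPM in the IMF clones and 11, 15.1, 12.2 and 15.4 CPM in the SF clones. All SF clones were above all IMF clones. Its log2 fold change was -1.86 (SE 0.15, edgeR adjusted p = 9.82e-05), or 3.64-fold lower in IMF. *HOXA4*, its neighbour, differed by a log2 fold change of -0.04 with a 95% interval of -0.48 to 0.40 and overlapped between groups, with the sign turned to 0.11 when scaled by total counts alone.

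None of the HOXA genes of the middle paralogs met both limits. *HOXA5*, which acts in lung and neck to thorax patterning, measured 8.92, 9.06, 8.57 and 9.61 CPM in IMF and 12.6, 18.6, 14.6 and 14.7 CPM in SF. *HOXA7*, a thoracic gene, measured 5.95, 6.21, 6.07 and 6.95 CPM in IMF and 14.4, 8.56, 12.9 and 7.99 CPM in SF. Neither gene overlapped between groups, and both had an adjusted p-value under 0.05 but a log2 fold change under 1 in size (-0.74, edgeR adjusted p = 0.00347 for *HOXA5*, and -0.80, edgeR adjusted p = 0.021 for *HOXA7*). *HOXA6* overlapped (13.2 to 15.4 CPM in IMF, 11.2 to 19.8 CPM in SF, log2 fold change -0.21, edgeR adjusted p = 0.386).

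**Figure D2:**
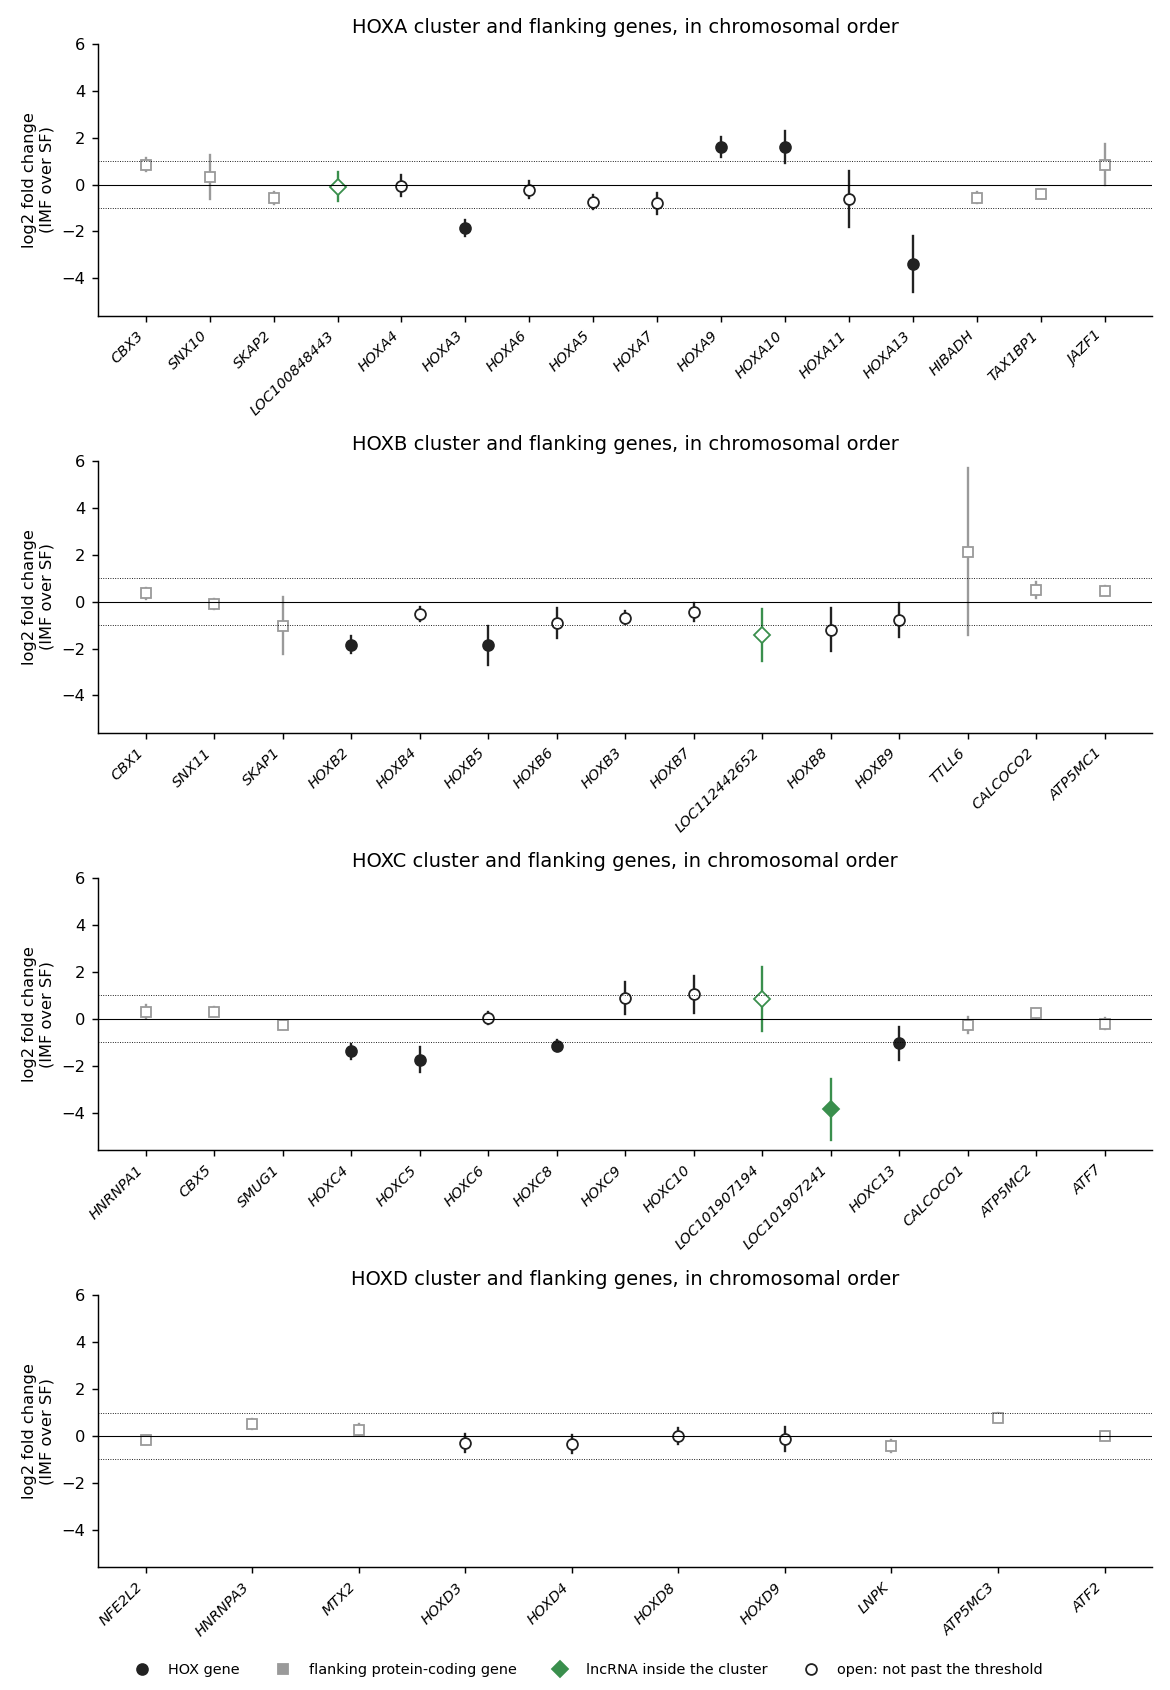
Log2 fold change of IMF over SF with its 95% confidence interval for each HOX gene, for the flanking protein-coding genes and for listed long non-coding RNAs inside each cluster, in order of position along the chromosome (evenly spaced). Filled symbols passed the threshold, and dotted lines mark log2 fold changes of 1 and -1. *HOXA9* and *HOXA10* lie above the upper line between neighbours at or below 0, and no flanking gene is filled.

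The HOXB cluster (chromosome 19, 37791919 to 37959268) held 2 genes that passed, both lower in IMF, against 4.04% of all genes. All 8 listed genes had a negative log2 fold change, from -1.87 to -0.44. An adjusted p-value under 0.05 was reached by 5 of the 8, against 11.4% of all genes as lower in IMF. In 6 of the 8 every IMF clone was below every SF clone, against 14.1% of all genes. *HOXB2*, a hindbrain gene at the 3′ end, measured 4.94, 5.82, 5.21 and 4.90 CPM in IMF and 15.6, 20.1, 23.4 and 15.4 CPM in SF. The groups were far apart relative to their spread (5.22 ± 0.424 and 18.6 ± 3.85 CPM, SD, n = 4 each). Its log2 fold change was -1.83 (SE 0.15, edgeR adjusted p = 0.000121), or 3.56-fold lower in IMF.

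*HOXB5*, a gene of the shoulder level and the enteric nervous system, measured 0.528, 0.556, 0.499 and 0.714 CPM in IMF, from 11 to 17 counts a clone. In the SF clones it measured 2.93, 1.70, 2.68 and 1.10 CPM, with SF4 the lowest and still above all IMF clones. The log2 fold change was -1.87 (SE 0.37, edgeR adjusted p = 0.0073), or 3.65-fold lower in IMF with an interval of 2.04 to 6.50.

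The other 6 HOXB genes had negative log2 fold changes but did not meet both limits: *HOXB3*, *HOXB4* and *HOXB6* met the adjusted p-value alone, *HOXB8* the fold alone, and *HOXB7* and *HOXB9* neither. *HOXB3*, a hindbrain and neck gene, measured 6.38, 5.43, 5.35 and 6.19 CPM in IMF and 9.85, 8.41, 10.7 and 8.43 CPM in SF (log2 fold change -0.68, edgeR adjusted p = 0.00567). *HOXB4*, known for expanding blood stem cells, measured 4.70, 4.38, 5.26 and 4.66 CPM in IMF and 7.03, 6.16, 7.51 and 6.39 CPM in SF (-0.51, edgeR adjusted p = 0.0193). Both sets of clones were separate. *HOXB6*, a thoracic gene, measured 17.6, 18, 19.3 and 20.8 CPM in IMF and 26.7, 32.6, 59.5 and 23.1 CPM in SF. SF3 stood well above the other SF clones (log2 fold change -0.91, edgeR adjusted p = 0.0417 with all 8 clones). Leaving out SF3 brought the log2 fold change of *HOXB6* to -0.57, and leaving out SF1 or SF4 to -1.02 or -1.07, past the threshold. Its adjusted p-value was 0.0747 to 0.0925 in edgeR without any one IMF clone, 0.066 without SF2, 0.0857 with scaling by total counts, 0.0679 with the replicate block and 0.0558 in limma-voom.

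*HOXB7*, a thoracic gene, measured 4.94, 5.04, 4.08 and 3.76 CPM in IMF and 5.29, 5.16, 7.51 and 6.17 CPM in SF. The groups did not overlap, though IMF2 and SF2 nearly met, and the adjusted p-value was 0.106 in edgeR. *HOXB8*, known from the myeloid lineage, and *HOXB9*, a thoracic gene, overlapped between groups, with log2 fold changes of -1.19 (edgeR adjusted p = 0.0597) and -0.78 (edgeR adjusted p = 0.112). *HOXB8* spread from 1.87 CPM in SF4 to 7.14 CPM in SF3 and passed the threshold without SF4 (log2 fold change -1.42), with DESeq2 (-1.20) and with the filter of at least 10 counts in 4 clones (-1.22). Without SF3 the log2 fold change of *HOXB8* was -0.80 (edgeR adjusted p = 0.114), and in limma-voom its adjusted p-value was 0.107.

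The HOXC genes (chromosome 5, 25977635 to 26093573) also changed sign between *HOXC8* and *HOXC9* and between *HOXC10* and *HOXC13*, with *HOXC6* near 0. Of the 7 listed genes 4 passed the threshold, all of them lower in IMF, against 4.04% of all genes. *HOXC4*, a neck to upper thorax gene, measured 6.57, 7.06, 7.03 and 6.85 CPM in IMF and 22.9, 16.8, 14.8 and 17.2 CPM in SF. No clone of one group reached the other, and the log2 fold change was -1.38 (SE 0.14, edgeR adjusted p = 0.000266). *HOXC5*, of the same body level, measured 1.63, 1.08, 1.27 and 1.52 CPM in IMF and 4.88, 3.25, 4.71 and 5.68 CPM in SF. These groups were separate too, with a log2 fold change of -1.75 (SE 0.23, edgeR adjusted p = 0.00118). *HOXC8*, a thoracic gene that also patterns forelimb motor neurons, measured 11, 12.8, 11.5 and 11.5 CPM in IMF. In SF it measured 27.2, 21.6, 29.3 and 25.5 CPM, all above IMF, with a log2 fold change of -1.14 (SE 0.11, edgeR adjusted p = 0.000186).

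*HOXC13*, known for hair and nail formation, measured 1.63, 2.29, 1.54 and 1.33 CPM in IMF and 2.52, 2.35, 4.91 and 4.24 CPM in SF. IMF2 and SF2 nearly met. Its log2 fold change was -1.04 (SE 0.31, edgeR adjusted p = 0.0397), close to both limits, and the gene no longer passed in limma-voom (-0.97), with scaling by total counts (-0.89), or without IMF1 (-1.02), IMF3 (-1.03), IMF4 (-0.94), SF3 (-0.86) or SF4 (-0.94).

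*HOXC9* and *HOXC10*, the paralogs of the 2 HOXA genes that were higher in IMF, had positive log2 fold changes but did not pass in edgeR. *HOXC10*, a lumbar gene, measured 2.40, 2.09, 2.81 and 3.14 CPM in IMF and 1.08, 1.25, 2.03 and 0.661 CPM in SF. The groups were separate, with SF3 at 2.03 CPM just below IMF2 at 2.09 CPM (log2 fold change 1.04, SE 0.34, edgeR adjusted p = 0.0568). *HOXC9*, a thoracic gene, ranged from 13 to 16.3 CPM in IMF, and the SF clones held 6.83, 5.16, 13.8 and 5.51 CPM, so that SF3 alone lay in the IMF range (0.88, SE 0.30, edgeR adjusted p = 0.0656). Without SF3 both passed, with log2 fold changes of 1.28 for *HOXC9* (edgeR adjusted p = 0.000969) and 1.35 for *HOXC10* (edgeR adjusted p = 0.0197). Both also passed with scaling by total counts (1.01 and 1.17), and *HOXC10* passed in DESeq2 (1.03, adjusted p = 0.0172). *HOXC6*, the highest HOX gene in CPM in both groups, overlapped, with a log2 fold change of 0.04 and an interval of -0.23 to 0.31, and its sign turned without IMF3 or SF4.

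The HOXD genes (chromosome 2, 20724251 to 20820802) overlapped between groups in every case. *HOXD8*, the highest of them per length, measured 14.7, 14.5, 15.2 and 12.5 CPM in IMF and 14.7, 17.5, 13.6 and 10.5 CPM in SF. The 4 log2 fold changes ran from -0.33 (*HOXD4*) to 0.01 (*HOXD8*), edgeR adjusted p-values from 0.176 to 0.96, and their 95% intervals together spanned -0.70 to 0.39. None passed in edgeR, DESeq2 or limma-voom, and 0 of 4 had an unadjusted edgeR p-value under 0.05, against 37.9% of all genes (20.2% higher and 17.8% lower in IMF). These intervals leave out changes as large as those of *HOXA9* or *HOXC4*. The difference between clusters was not itself tested. *HOXD3* and *HOXD4* pattern the neck, and *HOXD9* acts in the limb and lower spine. *HOXD9* was at 5.90 CPM in SF1 and at 11.7 to 12.5 CPM in the other SF clones.

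Grouped by paralog number over the clusters, the genes that passed as higher in IMF were both numbered 9 or 10, and those that passed as lower had numbers below or above these. The cut between 10 and 11 falls where the sign was already seen to turn in HOXA and HOXC. The contrast between numbers 9 to 10 and 11 to 13 is therefore a description and no further support. Shares over all genes tested were 4.04% passing as lower and 4.78% as higher, so 0 passing as higher in groups this small is near the share. Of 8 genes numbered 1 to 4, 3 passed as lower in IMF and 0 as higher, with a median log2 fold change of -0.60. Of 11 genes numbered 5 to 8, 3 passed as lower and 0 as higher, with a median of -0.80. Of 6 genes numbered 9 to 10, 2 passed as higher and 0 as lower, with a median of 0.96. Of 3 genes numbered 11 to 13, 2 passed as lower and 0 as higher, with a median of -1.04. In the first, second and last of these groups 0 genes were higher in IMF at an unadjusted edgeR p-value under 0.05, against 20.2% of all genes. In these groups 0 passed as higher in DESeq2 or limma-voom. Among the 6 paralogs 9 to 10, 1 gene (*HOXB9*) was lower at an unadjusted edgeR p-value under 0.05, near the 17.8% of all genes. Among them 0 passed as lower in DESeq2 or limma-voom.

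Levels were compared between genes per length, as TPM, which divides each count by the deposited gene length and then by the clone's total. The 28 HOX genes summed to 119 ± 8.37 TPM in IMF and 165 ± 28.6 TPM in SF (SD, n = 4 each). HOXA genes summed to much the same in both groups, at 43.1 ± 2.71 and 42.0 ± 4.95 TPM, whereas HOXB genes summed to 28.2 ± 2.57 TPM in IMF and 56.3 ± 15 TPM in SF. HOXC genes summed to 29.4 ± 1.42 and 46.7 ± 6.29 TPM, and HOXD genes to 18.7 ± 2.15 and 20.2 ± 5.30 TPM. The median HOX gene stood at the 40.8th percentile of TPM among all genes tested in IMF and at the 45.5th in SF. The gene with the highest TPM of each cluster differed by depot in HOXA (*HOXA9* in IMF, 19.1 ± 1.61 TPM, and *HOXA5* in SF, 11.6 ± 2.74 TPM) and in HOXB (*HOXB7* in IMF, 8.15 ± 1.29 TPM, and *HOXB2* in SF, 20.8 ± 5.74 TPM). It was the same in both groups in HOXC (*HOXC8*, 8.86 ± 0.497 TPM in IMF and 19.4 ± 2.75 TPM in SF) and HOXD (*HOXD8*, 10.1 ± 1.43 and 9.92 ± 2.78 TPM).

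The share of summed HOX TPM held by each paralog range was computed in every clone, as a description with no test. Paralogs 9 to 13 held 30.8%, 30.1%, 29.9% and 29.2% in IMF1 to IMF4 and 13.3%, 11.1%, 13.8% and 13.7% in SF1 to SF4. Every IMF clone thus held a larger share than any SF clone. *HOXA9* made up most of this gap, with 15.5 to 16.8% of the HOX TPM in the IMF clones and 2.99 to 5.65% in the SF clones, a difference of 12.2 of the 17.0 points. With *HOXA9* left out of the sum, a choice made after the values were seen, paralogs 9 to 13 held 15.9 to 17.1% in IMF and 8.13 to 11.1% in SF. Paralogs 5 to 8 held 49.9 ± 0.447% in IMF and 56.8 ± 0.75% in SF, and paralogs 1 to 4 held 20.1 ± 0.783% and 30.2 ± 1.70% (SD, n = 4 each). With ranges of 1 to 3, 4 to 9 and 10 to 13 instead, the IMF minus SF difference was 7.49 points for paralogs 4 to 9, which then include *HOXA9*, and 2.52 points for paralogs 10 to 13. Within the HOXA cluster paralogs 9 to 13 held 54.3 ± 1.66% of the TPM in IMF and 22.7 ± 4.46% in SF. Within HOXC they held 25.8 ± 0.708% and 12.0 ± 3.37%, with SF3 the highest SF clone at 17.0%. In the other 2 clusters the range overlapped between groups, at 5.00 ± 1.43% and 4.48 ± 1.26% in HOXB, where it is *HOXB9* alone, and at 18.3 ± 0.553% and 18.5 ± 5.61% in HOXD, where it is *HOXD9* alone.

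**Figure D3:**
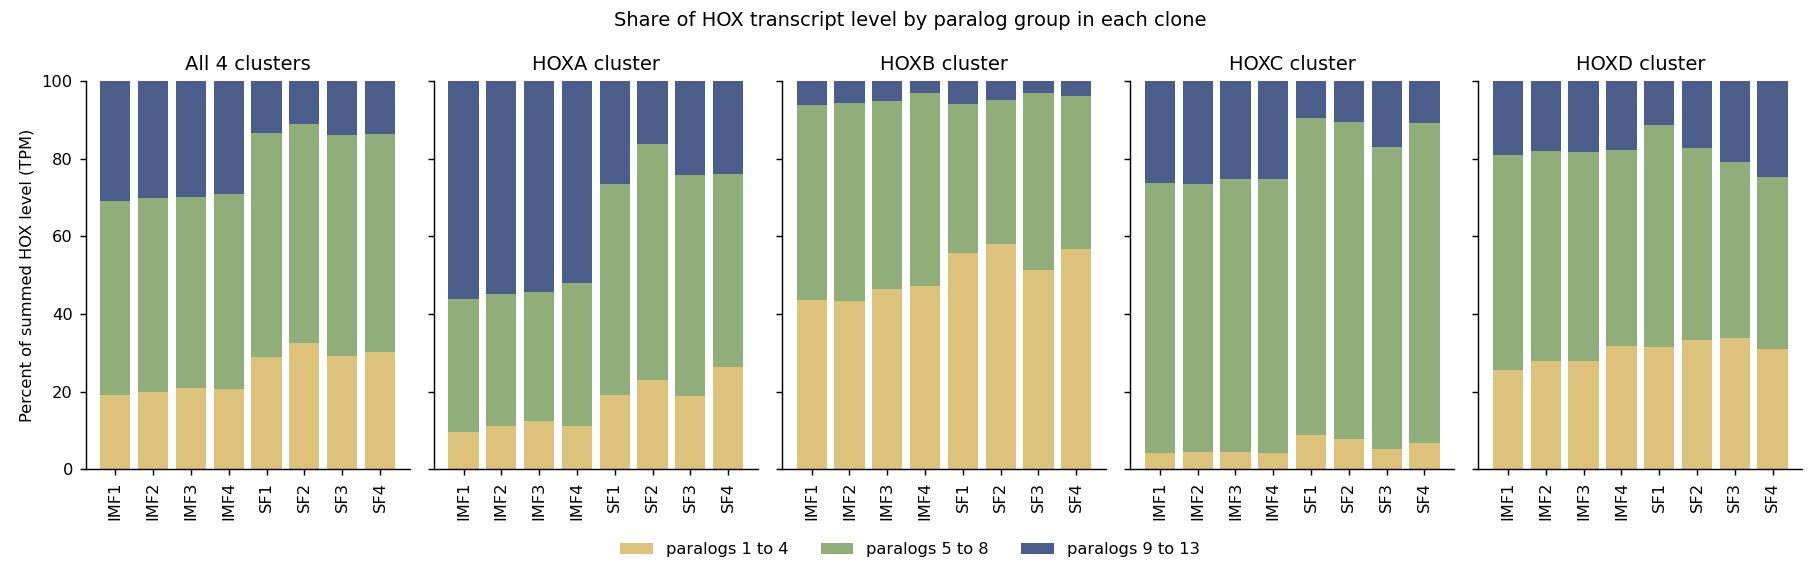
Percent of the summed HOX TPM held by paralogs 1 to 4, 5 to 8 and 9 to 13 in each clone (stacked bars from 0 to 100%), over all 4 clusters and within each. The share of paralogs 9 to 13 is 29.2 to 30.8% in the IMF clones and 11.1 to 13.8% in the SF clones, and in HOXA alone it is 52.1 to 56.1% and 16.2 to 26.4%.

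Ratios of counts within a clone, which no scaling between libraries can move, are given for pairs of genes within a cluster. The HOXA and HOXC pairs join genes already described as differing in opposite directions, so their separation is a description and no further support. *HOXA9* counts were 5.71 to 7.41 times those of *HOXA3* in the IMF clones and 0.394 to 1.02 times in the SF clones. The ratio of *HOXA10* to *HOXA13* was 11.2 to 39.0 in IMF and 0.459 to 0.632 in SF. *HOXC9* over *HOXC4* was 1.85 to 2.30 in IMF and 0.298 to 0.934 in SF, where the highest was SF3. The ratio of *HOXB9* to *HOXB2* overlapped, at 0.126 to 0.291 in IMF and 0.0781 to 0.155 in SF, as did that of *HOXD9* to *HOXD3*, at 1.05 to 1.32 and 0.615 to 1.71.

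The SF preadipocyte clones varied more among themselves than the IMF clones. The coefficient of variation of CPM over the 4 clones had a median of 8.97% over 33 of the genes in IMF and 21.8% in SF, and it was larger in SF for 29 of the 33. Over the 14351 genes with a mean of at least 1 CPM in both groups the medians were 8.01% and 16.1%, so the larger spread in SF was general. The largest spreads in SF were those of *HOXA11* (69.3%), where SF3 and SF4 were at 4.5 and 4.24 CPM and SF1 and SF2 at 0.821 and 1.4 CPM, of *HOXB8* (54.7%) and of *HOXC9* (51.7%).

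The clusters were also set against the genes around them. For each cluster the 3 nearest tested protein-coding genes on each side were taken, 24 in all, at distances of 25.8 to 1074.6 kb. None passed the threshold in edgeR or DESeq2 and 1 passed in limma-voom, whereas 7 were higher and 5 lower at an edgeR adjusted p-value under 0.05 (14.4% and 11.4% of all genes), and 10 were higher and 6 lower at an unadjusted one (20.2% and 17.8% of all genes). Their median log2 fold change was 0.25. Genes with log2 fold changes beyond 1 in size, *TTLL6* (2.13, edgeR adjusted p = 0.319) and *SKAP1* (-1.02, edgeR adjusted p = 0.206), flank HOXB and had wide intervals.

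Inside the clusters the table listed 4 long non-coding RNAs, a group set up after the table was seen. One of them, LOC101907241, lies at 26065213 to 26070523 on chromosome 5 between *HOXC11* and *HOXC12*, the interval that holds *HOTAIR* in human. The bovine gene carries no such name in RefSeq and was not matched to it here. It had 36, 60, 29 and 48 counts in IMF1 to IMF4 and 84, 659, 904 and 583 counts in SF1 to SF4. All SF clones were above the IMF clones in CPM, but SF1 at 4.31 CPM was far nearer to IMF (1.31 to 2.28 CPM) than the other SF clones (32.1 to 36.7 CPM). The log2 fold change was -3.86 (SE 0.57, edgeR adjusted p = 0.00253). The other 3 did not pass, with log2 fold changes of -0.09 (LOC100848443), -1.41 (LOC112442652, edgeR adjusted p = 0.0667) and 0.85 (LOC101907194, edgeR adjusted p = 0.333).

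Among the cofactors, *PBX2*, a HOX partner with the highest TPM of the 5 MEIS and PBX genes described in both groups (10.1 ± 0.314 and 13.2 ± 2.17 TPM), measured 28.7, 32.0, 27.7 and 30.1 CPM in IMF and 47.5, 38.0, 34.8 and 35.9 CPM in SF. It did not overlap and was lower in IMF without reaching the fold limit (log2 fold change -0.40, edgeR adjusted p = 0.0281). *PBX3* overlapped, with a log2 fold change of -0.03 and an interval of -0.30 to 0.23, and its sign turned to 0.12 with scaling by total counts alone.

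*MEIS2*, which acts in limb and cranial development, measured 12.1, 12.1, 12.4 and 13.7 CPM in IMF and 16.7, 16.2, 14.3 and 14.7 CPM in SF. The groups did not overlap, IMF4 being the nearest to SF3, and the log2 fold change was -0.30 (edgeR adjusted p = 0.0371). *MEIS1*, a cofactor known from blood stem cells, and *MEIS3* overlapped, with log2 fold changes of 0.11 (edgeR adjusted p = 0.705) and -0.44 (edgeR adjusted p = 0.191). *MEIS1* turned to -0.02 without SF1. Of these 5 genes 0 passed the threshold in edgeR, DESeq2 or limma-voom, against 8.82% of all genes in edgeR. At an unadjusted edgeR p-value under 0.05, 2 (*PBX2* and *MEIS2*) were lower and 0 higher in IMF. The shares over all genes were 17.8% and 20.2%. Summed over genes, MEIS reached 14.7 ± 0.792 TPM in IMF and 17.3 ± 3.22 TPM in SF.

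**Figure D4:**
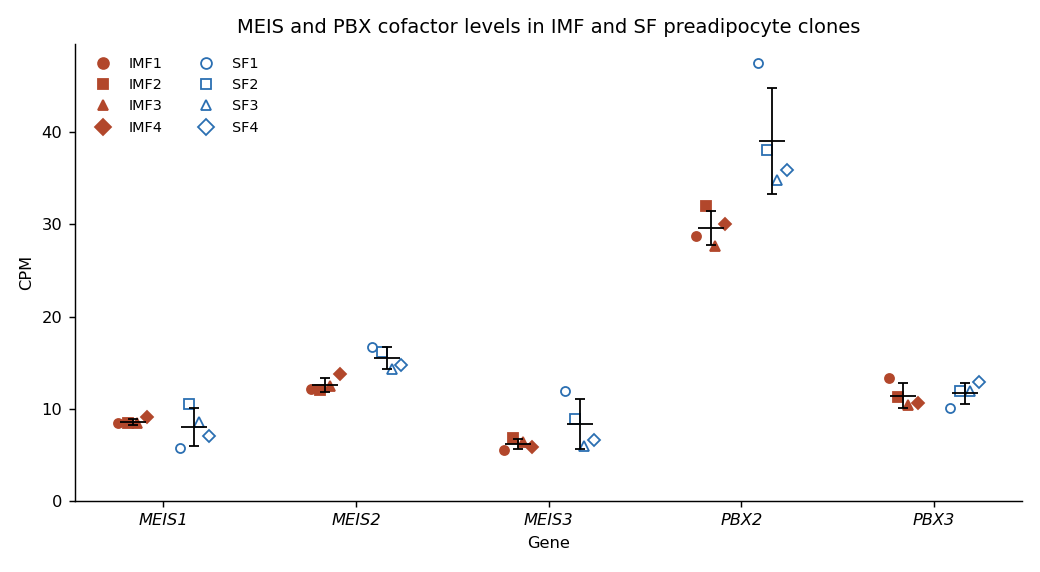
Level of 5 MEIS and PBX genes in CPM (linear axis), with a symbol for each clone, a bar at the group mean and whiskers of 1 SD (n = 4). *PBX2* is at 27.7 to 32.0 CPM in the IMF clones and at 34.8 to 47.5 CPM in the SF clones, and *MEIS1*, *MEIS3* and *PBX3* overlap.

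Other genes tied to HOX function were read from the same fit by list. Of 11 tested TALE relatives and PBX partners, 1 was higher and 3 were lower past the threshold, against 4.78% and 4.04% of all genes. *PKNOX1*, which pairs with PBX proteins on DNA, measured 19.2, 19.8, 18 and 18.8 CPM in IMF and 7.39, 8.66, 9.41 and 8.65 CPM in SF. It was separate and higher in IMF (log2 fold change 1.15, SE 0.09, edgeR adjusted p = 9.13e-05). The Iroquois genes *IRX1* and *IRX5*, homeodomain genes of limb, heart and nerve patterning, were lower in IMF and separate, at 1.96 to 2.86 CPM against 8.52 to 59.2 CPM for *IRX1* (-3.92, edgeR adjusted p = 0.00128) and 4.64 to 5.67 CPM against 20.1 to 45 CPM for *IRX5* (-2.76, edgeR adjusted p = 0.000174). *IRX3* measured 14.8 to 18.3 CPM in IMF and 17.7, 50.7, 66.4 and 34.4 CPM in SF, so SF1 lay within the IMF range (-1.31, edgeR adjusted p = 0.0256). *IRX3* lost the call in limma-voom and without any one of IMF1 to IMF4 or SF2 (edgeR adjusted p 0.0551 to 0.0644). SF1 was the lowest SF clone in all these Iroquois genes.

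Retinoic acid is the signal that switches on the low HOX paralogs in the embryo. Of 14 tested genes of its supply and receptors, 0 were higher and 2 were lower past the threshold in edgeR. The shares over all genes were 4.78% and 4.04%. At an unadjusted edgeR p-value under 0.05, 8 were lower and 0 higher, against 17.8% and 20.2% of all genes, and 0 were higher in DESeq2 or limma-voom. *CRABP2*, which carries retinoic acid to its receptor, was lower in IMF (1.77 to 2.16 CPM against 5.32 to 7.05 CPM, log2 fold change -1.63, edgeR adjusted p = 0.000271). *CRABP1*, a second retinoic acid carrier, had 42, 474, 725 and 5 counts in SF1 to SF4 and 4 to 17 in the IMF clones. SF2 and SF3 alone held its high values, the groups overlapped, and the edgeR adjusted p of 0.0232 became 0.388 in limma-voom and 0.0646 to 0.0659 without IMF2, IMF3 or IMF4. *RBP4*, a secreted retinol carrier, and *ALDH1A3*, an enzyme that makes retinoic acid, met the adjusted p-value but not the fold limit (log2 fold changes -0.91, edgeR adjusted p = 0.000999, and -0.80, edgeR adjusted p = 0.0215). Of the receptor genes, *RARA* was lower in IMF by a small amount (-0.24, edgeR adjusted p = 0.0296), and *RARB*, *RARG*, *RXRA* and *RXRB* had log2 fold changes between -0.05 and 0.05.

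Polycomb proteins keep HOX genes silent and Trithorax proteins keep them active. Of 27 Polycomb genes, 1 was higher and 0 were lower past the threshold, against 4.78% and 4.04% of all genes. In DESeq2 or limma-voom 0 were lower past the threshold. At an unadjusted edgeR p-value under 0.05, 8 were higher and 6 lower, against 20.2% and 17.8% of all genes. At an adjusted one 4 were higher and 4 lower, against 14.4% and 11.4%, so the adjusted counts lay near the shares over all genes. *CBX2*, a subunit that reads the repressive histone mark, measured 7.00, 7.46, 9.61 and 9.04 CPM in IMF and 4.11, 2.75, 3.57 and 2.7 CPM in SF. Its groups were separate (log2 fold change 1.33, SE 0.19, edgeR adjusted p = 0.00144). *EZH2*, the enzyme that writes that mark, differed by 0.34 (edgeR adjusted p = 0.228). Of 14 Trithorax genes and histone demethylases tested, 0 passed in edgeR, DESeq2 or limma-voom, and 5 were higher and 0 lower at an unadjusted edgeR p-value under 0.05, against 20.2% and 17.8% of all genes. The median log2 fold changes of these lists were 0.04 for TALE relatives, -0.64 for retinoic acid genes, -0.08 for Polycomb and 0.17 for Trithorax genes, beside -0.03 for all genes. Of 9 CDX, EVX and ParaHox genes and regulators only *GDF11*, a signal that sets the trunk to tail transition, was tested, at 0.70 (edgeR adjusted p = 0.00738).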

How the data were processed

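Per the labels and the paper's methods, poly(A) RNA of 8 clones was sequenced in paired-end reads, trimmed with Trimmomatic 0.39, aligned to ARS-UCD2.0 and counted per gene with featureCounts 2.0.2. The paper names HISAT2 as the aligner and the submitters' processing notes STAR 2.7.11a. The authors deposited raw counts per gene and clone and a gene length in bases. Their deposited group means (a signal), log2 fold changes, p-values, test scores and calls from DESeq2 1.42.0 were not used. The row with no gene (0.0148 to 0.0209% of counts) was left out. The paper describes a kit without strand and the labels a dUTP protocol, so reads of a gene and an overlapping or antisense partner cannot be told apart. In RefSeq, 12 of the 34 genes overlap another of them (*HOXA3*, *HOXA4*, *HOXA5*, *HOXA6*, *HOXB3*, *HOXB4*, *HOXB5*, *HOXB6*, *HOXB8*, *HOXB9*, *HOXD3* and *HOXD4*), which leaves their values uncertain, and the deposited length of *HOXA6* and *HOXD9* exceeds the RefSeq span.

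The main test used edgeR 4.0.16 (R 4.3.3) on genes with at least 20 counts in total (TMM factors, two-sided quasi-likelihood test, Benjamini-Hochberg adjustment over 18339 genes). Standard errors and 95% intervals came from the same fit. CPM used TMM factors. TPM used the deposited length. Depth was 19658612 to 29315019 counts per clone. Per the paper, each clone of a group came from a different SVF sample, and the steer behind each sample is not named, so p-values measure the spread between these clones. Clone numbers in the 2 groups were not treated as pairs.

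The genes, lists and tests were chosen with earlier results of these data known. Given per clone were genes past the threshold or with separate groups and the highest per length in each cluster, and at most 4 per list. Other genes are given by range. A few results are left unreported here. Alternatives were DESeq2, limma-voom (limma 3.58.1), RLE or total-count scaling, other filters, glmTreat with a log2 limit of 1, a clone-number block and leaving out each clone. On simulated counts of 18030 genes with 200 changed by a log2 fold change of 2, edgeR recovered 85.0%, with 5.56% of its calls false. Tables and figures used Python 3.11.15.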

Additional observations from a re-analysis of the deposited data

Results flagged for a closer look

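In 66 groups of 4 clones (33 genes in 2 depots), the CPM of 1 clone stood apart from the other 3 by Dixon's criterion in 2 groups, where chance flags about 1 in 20. *HOXD9* was at 5.90 CPM in SF1 and at 11.7 to 12.5 CPM in the other SF clones. *MEIS1* was at 9.09 CPM in IMF4 and at 8.40 to 8.47 CPM in the other IMF clones, a gap that is small beside the spread of the SF clones.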

How the results depend on the processing

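Of the 2 HOX genes higher and 8 lower in IMF, scaling by total counts alone gave 4 higher, and glmTreat with a log2 limit of 1 gave 1 higher and 4 lower. That scaling raised the higher share of all calls from 54.2% to 66.7%. Leaving out each clone in turn gave 2 to 4 higher (4 without SF3, when *HOXC9* and *HOXC10* passed) and 7 to 9 lower. With glmTreat *HOXA10*, *HOXB5*, *HOXC4*, *HOXC8* and *HOXC13* lost the call. *HOXC8* also missed it, at a log2 fold change of -0.997, with total counts. The cause of these changes was not tested, except that glmTreat asks for evidence beyond the fold limit by construction.

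In the regulator and partner lists (2 higher, 5 lower), DESeq2 gave 8 lower, limma-voom 3 and glmTreat 0 higher and 3 lower. Leaving out each clone gave 2 higher and 3 to 6 lower each time.

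The sources do not say whether clones of one number share a steer. The correlation of their deviations was -0.0093 to 0.139 over 4 pairs (mean 0.055). Over 12 other pairs it was -0.105 to 0.109 (mean -0.018). So few pairs cannot show whether clones of one number share an animal. With the replicate block, 3 of the lists' genes were lower, 2 HOX genes were higher and 7 lower, *HOXC13* having lost its call.

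The IMF minus SF difference in the share of paralogs 5 to 8 was -6.95 points, and -3.26 from counts not divided by length. For paralogs 9 to 13 it was 17.0 and 12.9 points. With boundaries of 1 to 3, 4 to 9 and 10 to 13 the middle and last ranges, which are then other genes, differed by 7.49 and 2.52 points. Leaving out each clone gave -10.5 to -9.30 points for paralogs 1 to 4, -7.19 to -6.65 for 5 to 8 and 16.4 to 17.3 for 9 to 13.

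Signs turned for genes near no difference. With total counts the log2 fold change of *HOXA4* was 0.11, of *HOXD9* 0.028 and of *PBX3* 0.12. That of *HOXD8* was -0.019 with no filter and -0.016 with at least 10 counts in 4 clones. Leaving out each clone, *HOXA4* ran from -0.14 to 0.043, *HOXC6* from -0.047 to 0.12, *HOXD8* from -0.10 to 0.14, *MEIS1* from -0.020 to 0.27 and *PBX3* from -0.12 to 0.014. The other 27 of the 33 genes kept their direction under all 16 alternatives, and 487 of 528 values kept direction and side of the threshold. Depth limits *HOXA13* in IMF (2 to 10 counts).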
